A study of Homo sapiens with 4 samples.

Results

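The genes described here are the 10 that encode the transforming growth factor beta (TGF-beta) ligands, their receptors and the latent TGF-beta binding proteins. They were chosen by name, as the rows of the deposited table whose gene name is TGFB1, TGFB2, TGFB3, TGFBR1, TGFBR2, TGFBR3, LTBP1, LTBP2, LTBP3 or LTBP4. All 10 names were found, once each, among the 57659 genes listed. Expression was measured by RNA-seq in 786-0, an established human renal cell carcinoma line (characteristically without functional VHL, so that hypoxia-inducible factor is active). The control group held 2 libraries of cells given control siRNA (Control 1 and Control 2). The other group held 2 libraries of cells given siRNA specific for Schlafen 5 (SLFN5 siRNA 1 and SLFN5 siRNA 2). Whether the 2 libraries in each group were cultured apart is not stated in the labels, so the p-values measure the spread between these libraries, which may be technical.

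TGF-beta is made as a precursor whose prodomain stays wrapped around the mature dimer and keeps it latent. In many cells a latent TGF-beta binding protein (LTBP) is bonded to that prodomain before secretion and ties the complex to the extracellular matrix, from which integrins, proteases or thrombospondin can release it. The active ligand binds the kinase receptor TGFBR2, which recruits and phosphorylates TGFBR1, and TGFBR1 then phosphorylates SMAD2 and SMAD3. The co-receptor TGFBR3 (betaglycan) presents ligand to TGFBR2 and matters most for TGF-beta 2, which binds TGFBR2 weakly by itself. In carcinoma cells the pathway is known for slowing division and for promoting matrix production and invasion.

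Each library held 13187517 to 31905325 counts, which were recovered from the deposited values. Values below are equalised counts, the deposited values, which are gene counts adjusted to a common library size. The siRNA target SLFN5 had 420 and 353 in the controls and 167 and 118 after SLFN5 siRNA, a log2 change of -1.45 (limma, adjusted p = 0.000524). Of 6 markers of kidney and renal carcinoma epithelium, the lowest value of PAX8, KRT8, KRT18, CDH6 and VIM in any library was 2888 equalised counts, whereas PAX2 had 46.0 and 68.1 in the controls and 37.8 and 20.2 after SLFN5 siRNA. PAX2 did not pass (log2 change -0.99, limma adjusted p = 0.0884), and 2 of the 6 did, CDH6 (log2 change 1.42) and VIM (-0.46). The 5 leukocyte markers held 21 counts over all 4 libraries, with CD3E at 0, and the 4 endothelial markers held 35, with PECAM1 at 0. The 4 fibroblast markers summed to 90.0 to 125 equalised counts in the controls and to 59.2 to 63.4 after SLFN5 siRNA, with 1 of the 3 tested, PDGFRB, called (log2 change -1.82, limma adjusted p = 0.0336). The part of these low marker levels in the results below was not tested.

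The promoter sequences of the 4 genes that passed the test are shown because those genes moved in different directions within one small family. They are RefSeq sequences (GRCh38.p14), 5′ to 3′ on the gene's strand, from the 250 bases before the annotated start, without any base that lies in an exon of a protein-coding gene. The windows are chr1:218345086-218345335 (plus strand) for TGFB2, chr14:74612379-74612487 (minus strand) for LTBP2, chr1:91886280-91886401 (minus strand) for TGFBR3 and chr2:32946703-32946952 (plus strand) for LTBP1. LTBP1 has further RefSeq starts, and the TGFBR3 window lies inside the gene as GENCODE 29 draws it, which begins further upstream. For TGFB2 the RefSeq start, 218345336, lies upstream of the GENCODE 29 gene start given below, 218346235. Capitals mark matches on either strand to the motifs searched, and no match overlaps a different motif.
TGFB2: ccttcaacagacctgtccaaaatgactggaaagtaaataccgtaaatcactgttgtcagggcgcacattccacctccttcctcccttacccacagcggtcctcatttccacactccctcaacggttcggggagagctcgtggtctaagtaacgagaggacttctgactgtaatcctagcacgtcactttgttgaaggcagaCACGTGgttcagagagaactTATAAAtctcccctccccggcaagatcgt
LTBP2: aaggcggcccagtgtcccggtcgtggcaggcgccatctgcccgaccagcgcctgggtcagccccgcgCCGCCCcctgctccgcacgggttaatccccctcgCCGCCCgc
TGFBR3: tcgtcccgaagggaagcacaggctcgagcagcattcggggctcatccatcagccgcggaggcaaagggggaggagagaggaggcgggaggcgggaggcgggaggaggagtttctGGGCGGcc
LTBP1: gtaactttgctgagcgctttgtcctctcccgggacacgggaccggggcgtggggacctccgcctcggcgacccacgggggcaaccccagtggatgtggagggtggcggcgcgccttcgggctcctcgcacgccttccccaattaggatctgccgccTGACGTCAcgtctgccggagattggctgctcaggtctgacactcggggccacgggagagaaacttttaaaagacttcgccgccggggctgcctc
All 10 genes had an entry in the RefSeq table. The motifs were the cyclic AMP response element TGACGTCA, the GC box GGGCGG, the E-box CACGTG, the AP-1 site TGANTCA and the TATA box TATAAA. They occurred in 1.65%, 42.6%, 6.34%, 6.57% and 10.7% of the 35116 promoter windows of 250 bases in that table. The TGFB2 window held an E-box beginning 49 bases and a TATA box beginning 29 bases before the start, and no GC box. The LTBP1 window held a cyclic AMP response element 94 bases before the start. The full windows of LTBP2 and TGFBR3 held 3 and 2 GC boxes and none of the other motifs. Of the ligands that did not pass the test, TGFB1 had 6 GC boxes in its window. TGFB3 had an E-box beginning 20 bases before a RefSeq start, a TATA box beginning 30 bases before another start, and no GC box in either window. These matches describe the letters only, and the start used in these cells was not measured.

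Among the ligands, one changed and the others did not pass the test. TGFB2 (ENSG00000092969, chromosome 1, GRCh38 218346235 to 218444619, plus strand), the isoform that depends on betaglycan, was at 3436 and 3717 equalised counts in the controls and at 1000 and 845 after SLFN5 siRNA. Both SLFN5 siRNA libraries lay far below both controls. The level after SLFN5 siRNA was 25.8% of the control level (log2 change -1.96, SE 0.12, 95% interval -2.23 to -1.68, limma adjusted p = 4.36e-06). By absolute log2 change it ranked 193 among the 15640 genes tested. These values rest on 5908 and 2568 recovered counts in the controls and on 978 and 727 after SLFN5 siRNA.

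TGFB1 (ENSG00000105329, chromosome 19, 41301587 to 41353911, minus strand), the most widely expressed isoform in most tissues, was at 257 and 200 in the controls and at 246 and 190 after SLFN5 siRNA. The groups overlapped, and the change did not pass (log2 change -0.07, SE 0.21, 95% interval -0.53 to 0.40, limma adjusted p = 0.851). TGFB3 (ENSG00000119699, chromosome 14, 75958099 to 75982991, minus strand) was near the limit of what these depths resolve, at 28.7 and 43.7 in the controls and 30.7 and 51.8 after SLFN5 siRNA, from 30 to 51 recovered counts per library. Its groups overlapped as well (log2 change 0.17, SE 0.40, 95% interval -0.71 to 1.05, limma adjusted p = 0.799). A fall as large as that of TGFB2 lies outside both intervals, and changes within them could not be resolved from 0.

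The balance between ligand transcripts, taken within each library, differed between the groups. The ratio of TGFB2 to TGFB1 equalised counts was 13.4 in Control 1 and 18.6 in Control 2, against 4.06 in SLFN5 siRNA 1 and 4.45 in SLFN5 siRNA 2. On the log2 scale the ratio differed by -1.89 between the groups, and the groups did not overlap. This mostly restates the fall of TGFB2 (log2 change -1.96), since TGFB1 had a log2 change of -0.07. A factor shared by all genes of a library cancels in such a ratio. The adjustment to a common library size acts gene by gene, so it need not cancel fully. An exact two-sided permutation test of 2 against 2 libraries cannot give a p below 0.333, so none is given. The counts of TGFB2 were 92.3% and 93.9% of the counts of the 3 ligand genes in the controls and 78.3% and 77.8% after SLFN5 siRNA. TGFB2 therefore held the majority of ligand counts in every library, before and after its fall. The share of TGFB1 was 6.91% and 5.04% in the controls and 19.3% and 17.5% after SLFN5 siRNA, while its own level did not pass the test.

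**Figure D1:**
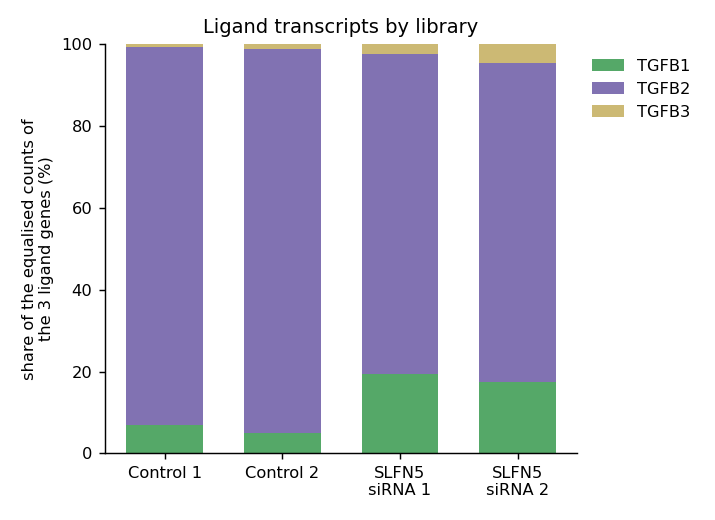
Stacked bars give the share (%, linear axis) of the equalised counts of the 3 ligand genes that each ligand took in each of the 4 libraries, not corrected for gene length. TGFB2 took 92.3% and 93.9% in the controls and 78.3% and 77.8% after SLFN5 siRNA.

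Transcripts near TGFB2 were listed as well. The antisense RNA TGFB2-AS1 (ENSG00000232480), an exon of which crosses the promoter window shown above and the RefSeq start of TGFB2 but no TGFB2 exon of GENCODE 29, had 14 and 12 recovered counts in the controls and 2 and 0 after SLFN5 siRNA. Its equalised counts were 7.44, 16.4, 2.04 and 0.0386 in the same order, under the minimum for testing. The library kit does not mark strand, so reads near that start cannot be assigned to either gene by strand. TGFB2-OT1, a transcript within the end of TGFB2 on the same strand that covers 26.6% of its exon length, was not analysed here. TGFB1 shares 6.64% of its exon length with HNRNPUL1 on the opposite strand, a gene at 3228 to 4494 equalised counts, so part of the TGFB1 counts is uncertain. The antisense genes that overlap TGFB3 and LTBP2 had no counts in any library.

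The signalling receptors did not pass the test and the co-receptor was lower. TGFBR1 (ENSG00000106799, chromosome 9, 99104038 to 99154192, plus strand), the kinase that phosphorylates SMAD2 and SMAD3, was at 1396 and 1318 equalised counts in the controls and at 1383 and 1463 after SLFN5 siRNA. The groups overlapped (log2 change 0.07, SE 0.12, 95% interval -0.19 to 0.33, limma adjusted p = 0.711). TGFBR2 (ENSG00000163513, chromosome 3, 30606502 to 30694142, plus strand), the receptor that binds ligand first, was at 1575 and 1432 in the controls and at 1772 and 1793 after SLFN5 siRNA. Both SLFN5 siRNA libraries lay above both controls, by a margin that did not pass (log2 change 0.25, SE 0.12, 95% interval -0.01 to 0.50, limma adjusted p = 0.137). It passed with quantile normalization (log2 change 0.37, limma adjusted p = 0.0382).

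TGFBR3 (ENSG00000069702, chromosome 1, 91680343 to 91906335, minus strand), the co-receptor betaglycan, was at 72.6 and 73.8 equalised counts in the controls and at 42.9 and 35.1 after SLFN5 siRNA. Both SLFN5 siRNA libraries lay below both controls, at 53.2% of the control mean (log2 change -0.90, SE 0.31, 95% interval -1.58 to -0.21, limma adjusted p = 0.0493). The call stood at the threshold, on 125 and 51 recovered counts in the controls and 42 and 30 after SLFN5 siRNA. It was lost whichever library was left out. The log2 change was -0.91 and -0.89 without Control 1 and 2, and -1.04 and -0.76 without SLFN5 siRNA 1 and 2. The call was also lost with no filter (limma adjusted p = 0.0833), with median-of-ratios scaling (0.0565), with no trend (0.0526) and in limma-voom (0.0587).

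The LTBP genes went in different directions. LTBP2 (ENSG00000119681, chromosome 14, 74498170 to 74612378, minus strand), a matrix protein of elastic fibres and, unlike its relatives, not a carrier of latent TGF-beta, was at 245 and 293 equalised counts in the controls and at 143 and 126 after SLFN5 siRNA. Both SLFN5 siRNA libraries lay below both controls, 2.00-fold lower on average (log2 change -0.99, SE 0.20, 95% interval -1.44 to -0.55, limma adjusted p = 0.00381). Its recovered counts were 423 and 203 in the controls and 140 and 108 after SLFN5 siRNA. With no trend the limma adjusted p of LTBP2 was 0.0499, barely under the threshold.

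LTBP1 (ENSG00000049323, chromosome 2, 32946972 to 33399509, plus strand), a main carrier of latent TGF-beta, was the only one of the 10 genes called higher. It was at 16.5 and 13.4 equalised counts in the controls and at 40.9 and 36.1 after SLFN5 siRNA, so both SLFN5 siRNA libraries lay above both controls (log2 change 1.32, SE 0.42, 95% interval 0.39 to 2.24, limma adjusted p = 0.0362). Its recovered counts were few, with 28 in Control 1 (exact Poisson 95% interval 18.6 to 40.5), 9 in Control 2 (4.12 to 17.1), 40 in SLFN5 siRNA 1 (28.6 to 54.5) and 31 in SLFN5 siRNA 2 (21.1 to 44.0). These intervals cover counting error only, and the depth of Control 1 was 2.42 times that of Control 2. The call was lost whichever library was left out, and with no filter (limma adjusted p = 0.0781). The log2 change was 1.46 and 1.17 without Control 1 and 2, and 1.23 and 1.40 without SLFN5 siRNA 1 and 2.

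LTBP3 (ENSG00000168056, chromosome 11, 65538805 to 65558930, minus strand), also a carrier of latent TGF-beta, was at 411 in Control 1 but 201 in Control 2, and at 380 and 330 after SLFN5 siRNA. The controls enclosed the SLFN5 siRNA values (log2 change 0.30, SE 0.27, 95% interval -0.30 to 0.90, limma adjusted p = 0.448). The 2 controls decided the estimate, which was 0.82 without Control 1 (limma adjusted p = 0.0126) and -0.22 without Control 2 (0.626). LTBP4 (ENSG00000090006, chromosome 19, 40592883 to 40629818, plus strand), which binds latent TGF-beta 1 weakly and organises elastic fibres, was at 303 and 281 in the controls and at 311 and 390 after SLFN5 siRNA. Its SLFN5 siRNA libraries lay just above the controls without passing (log2 change 0.25, SE 0.18, 95% interval -0.14 to 0.64, limma adjusted p = 0.322).

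The ratio of the called LTBP genes restates their separate changes, since they were chosen for going in opposite directions. LTBP1 equalised counts were 0.0673 and 0.0456 of those of LTBP2 in the controls and 0.286 and 0.288 after SLFN5 siRNA, a difference of 2.31 in the log2 ratio. The ratio was higher in both SLFN5 siRNA libraries than in both controls, and it rests on the few LTBP1 counts given above. Likewise as a description, the TGFBR3 to TGFBR2 ratio was 0.0461 and 0.0515 in the controls and 0.0242 and 0.0196 after SLFN5 siRNA.

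**Figure D2:**
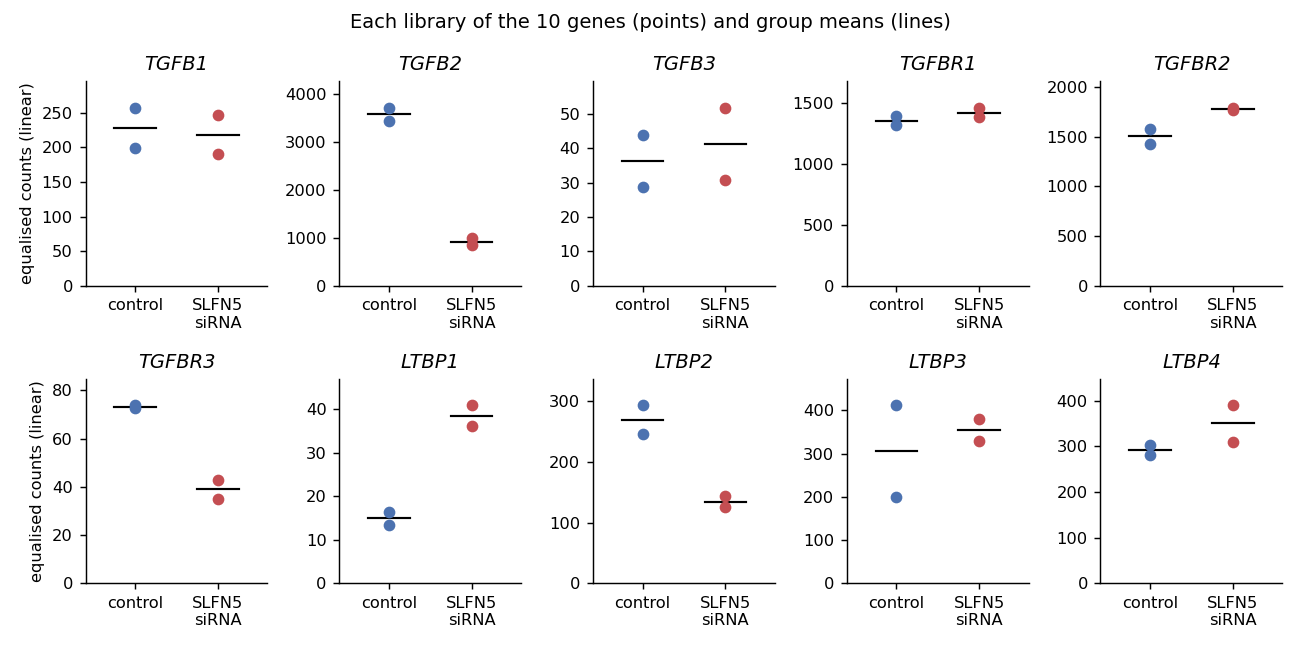
Points are the equalised counts (linear axes starting at 0, scaled per gene) of the 2 control and 2 SLFN5 siRNA libraries, and lines are group means. The groups are apart for TGFB2, TGFBR2, TGFBR3, LTBP1, LTBP2 and LTBP4, and LTBP3 shows the wide gap between its controls, 411 and 201.

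In all, 3 of the 10 genes were called lower (TGFB2, TGFBR3 and LTBP2) and 1 higher (LTBP1), and 6 did not pass. Over all 15640 genes tested, 16.3% were called lower and 13.3% higher, 29.6% in either direction (limma, adjusted p threshold 0.05). With 10 genes, 4 calls are not far from that background, so they are read gene by gene and not as a property of the family. The groups did not overlap in 6 of the 10 genes, or 60%, against 64.6% of all genes tested. The median log2 change was 0.12 over the 10 genes and -0.03 over all genes tested. All 10 had passed the minimum of 10 equalised counts in at least 2 libraries, LTBP1 by its values in all 4.

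**Figure D3:**
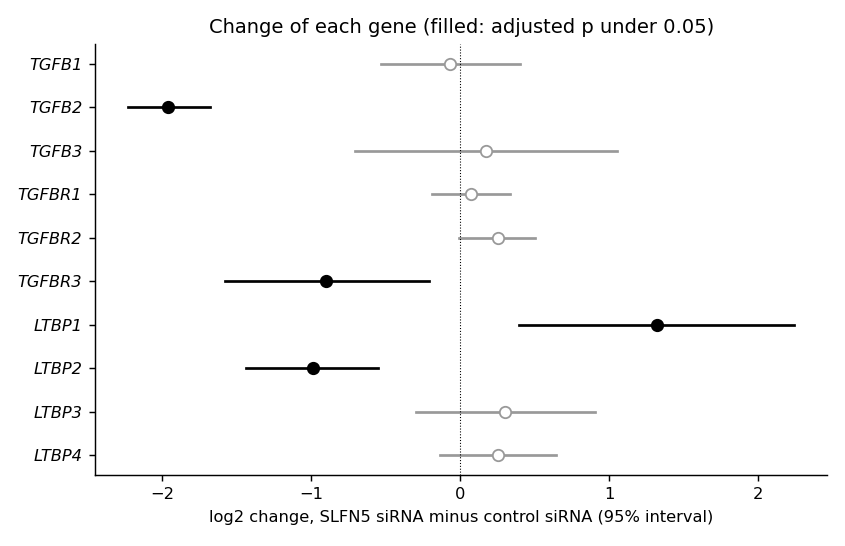
Points are log2 changes (SLFN5 siRNA minus control siRNA) of the 10 genes, bars are 95% intervals from limma, and filled points have an adjusted p under 0.05. TGFB2 at -1.96 has a narrow interval, -2.23 to -1.68, whereas that of LTBP1 at 1.32 runs from 0.39 to 2.24.

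Levels of different genes were compared per kilobase (kb) of exon, with exon lengths from GENCODE 29, which need not be the annotation the authors counted on. These lengths join the exons of all annotated isoforms and can exceed the transcript expressed, so the order of genes depends on them. In the controls TGFB2 was highest, at 694 ± 38.5 equalised counts per kb (SD, n = 2), followed by TGFBR2 at 320 ± 21.5 and TGFBR1 at 198 ± 8.08. TGFB1 came next at 70.5 ± 12.6. LTBP4 (36.1 ± 1.93), LTBP3 (29.7 ± 14.5) and LTBP2 (29.6 ± 3.71) followed, and LTBP3 overlapped both of its neighbours. TGFBR3 (8.41 ± 0.0952) and TGFB3 (7.37 ± 2.16) overlapped each other, and LTBP1 was lowest at 2.04 ± 0.302.

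After SLFN5 siRNA the first place passed to TGFBR2, at 379 ± 3.13 equalised counts per kb (SD, n = 2), followed by TGFBR1 at 208 ± 8.19 and TGFB2 at 179 ± 21.3. Both TGFB2 values, 194 and 164, lay below both TGFBR1 values, 202 and 214. TGFB1 kept the fourth place at 67.4 ± 12.3. LTBP4, LTBP3 and LTBP2 followed at 43.2 ± 6.89, 34.5 ± 3.44 and 14.8 ± 1.35 without overlap. At the low end were TGFB3 at 8.39 ± 3.03, LTBP1 at 5.25 ± 0.457 and TGFBR3 at 4.48 ± 0.638, with TGFBR3 lowest by its mean. The higher TGFBR3 library, at 4.930, nearly met the lower LTBP1 library, at 4.932, so the order of these genes was not resolved.

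**Figure D4:**
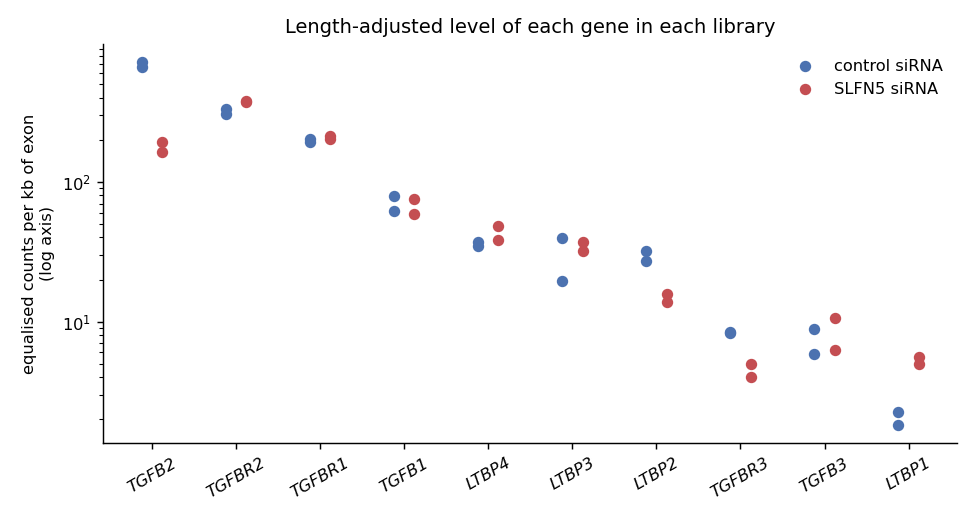
Points are equalised counts per kb of exon (log axis) in each library, with genes ordered by their control mean. TGFB2 leads in the controls, at 694 per kb on average, and lies below TGFBR2 and TGFBR1 after SLFN5 siRNA, at 179.

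Some of the 10 genes lie near each other in the genome. TGFB1 and LTBP4 are 0.672 Mb apart on chromosome 19, and neither passed the test. TGFB3 and LTBP2 are 1.35 Mb apart on chromosome 14, where LTBP2 was lower and TGFB3 did not pass. The genes whose values over the 4 libraries were most like those of TGFB2, by the mean absolute difference of centred log2 values, were DUSP7 (0.075), SLAMF8 (0.082) and the SUMO protease SENP5 (0.083). This likeness is over 4 libraries in 2 groups, and their log2 changes were -1.81, -2.08 and -1.93.

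Other genes of the pathway were counted in lists drawn up by role, and each count stands beside the 29.6% of all genes tested that were called. With no trend in limma the calls over all genes dropped to 510 lower and 672 higher, and those in the lists of SMAD transducers, feedback inhibitors, latency genes, co-receptors, other ligands and targets were 0, 3, 1, 2, 2 and 5. Of the 11 genes for SMAD transducers and linked kinases, 2 were lower and 0 higher in limma, where 1 was higher and 3 were lower at an unadjusted p under 0.05. Those called were MAP3K7, the kinase TAK1 of the SMAD-independent branch (log2 change -0.70, limma adjusted p = 0.00165), and SMAD5, a transducer of bone morphogenetic protein signals (-0.47, limma adjusted p = 0.0136). SMAD5 was lost without Control 2 (0.131), without SLFN5 siRNA 1 (0.0742), with quantile normalization (0.0633) and with no trend (0.125), and MAP3K7 with no trend (0.0568). SMAD2, SMAD3 and SMAD4, which carry the TGF-beta signal and are named after their values were seen, had log2 changes of -0.03, 0.44 and -0.23 and did not pass (limma adjusted p = 0.870, 0.0601 and 0.174).

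Of the 14 feedback inhibitors and receptor regulators, 5 were lower, 1 was higher and 8 did not pass. SMURF2, a ubiquitin ligase that targets the receptors, fell from 1575 ± 61.3 to 803 ± 56.9 equalised counts (SD, n = 2), with a log2 change of -0.97 (limma adjusted p = 0.000225). The receptor-associated TGFBRAP1 and the decoy receptor BAMBI fell by 0.95 and 0.91 on the log2 scale (limma adjusted p = 0.000180 and 0.000493). PMEPA1, which keeps SMAD2 and SMAD3 from the receptor, rose by a log2 change of 0.56 (limma adjusted p = 0.00420, and 0.0804 with no trend).

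Of the 15 genes tested among 20 listed names for latency, anchoring and activation, 5 were higher and 1 lower. The median log2 change was 0.33, and the names include LRRC33 and its alias NRROS. The integrin gene ITGB3, also listed, was not matched to a single row and was not tested. The lower one was THBS1, thrombospondin 1, an activator of latent TGF-beta, which fell from 14982 ± 434 to 2650 ± 300 equalised counts (SD, n = 2), with a log2 change of -2.50 (limma adjusted p = 4.21e-07). The proteases MMP2 and MMP14 rose by log2 changes of 0.95 and 0.72, and fibrillin 1 (FBN1), to which LTBPs attach, by 1.00 (limma adjusted p = 0.00525, 0.000762 and 0.0188). FBN1 was lost without Control 1 (limma adjusted p = 0.114) and without SLFN5 siRNA 2 (0.0907), and all 3 were lost with no trend (0.0629 to 0.109). With quantile normalization 11 genes of this list passed instead of 6.

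Of 6 tested among 13 listed co-receptors and ligand-binding proteins, 1 was higher and 2 were lower. CD109, a surface protein that binds TGF-beta and dampens its signal, rose from 692 ± 24.8 to 1842 ± 64.4 equalised counts (SD, n = 2), with a log2 change of 1.41 (limma adjusted p = 2.29e-05). The follistatin-like proteins FSTL1 and FSTL3 fell by 0.95 and 0.60 on the log2 scale, with limma adjusted p of 0.000125 and 0.00206 (FSTL3 0.0647 with no trend). The co-receptor endoglin (ENG) stayed below the minimum for testing, at 1.97 to 7.42 equalised counts.

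Of 7 tested among 25 listed ligands elsewhere in the superfamily, 3 were higher and 2 lower. GDF15, a stress-induced cytokine, rose from 386 ± 55.1 to 1108 ± 6.95 equalised counts (SD, n = 2), with a log2 change of 1.53 (limma adjusted p = 4.07e-05). The activin and inhibin subunits went in opposite directions, with log2 changes of 0.73 for INHBA and -0.73 for INHBB (limma adjusted p = 0.00997 and 0.00353). INHBA was lost without Control 1 (0.0565), without SLFN5 siRNA 2 (0.0704) and with no trend (0.124), and INHBB with no trend (0.0650). AMH had a log2 change of -0.83 (limma adjusted p = 0.0154) that was lost without Control 1 (0.0960) and without Control 2 (0.0656). Of 7 tested among 10 listed receptors for those ligands, 0 passed in limma and 0 in limma-voom, against 1 higher and 2 lower at an unadjusted p under 0.05 in limma.

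Among 28 genes tested of 32 listed names for TGF-beta targets, limma called 11 higher and 9 lower, 20 in all. The median log2 change was 0.22, and the names include CTGF and its alias CCN2. With no trend 5 were called. The cytokine IL11 fell by 1.88 on the log2 scale (limma adjusted p = 0.00123, and 0.0721 with no trend). ANGPTL4, a lipase inhibitor that also responds to hypoxia, rose by a log2 change of 2.21 (limma adjusted p = 0.000899). The smooth muscle actin ACTA2 had a log2 change of 1.33 (limma adjusted p = 0.0257), which was 0.83 and lost without Control 2 (0.176), and lost without SLFN5 siRNA 2 (0.157) and with no trend (0.126).

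**Figure D5:**
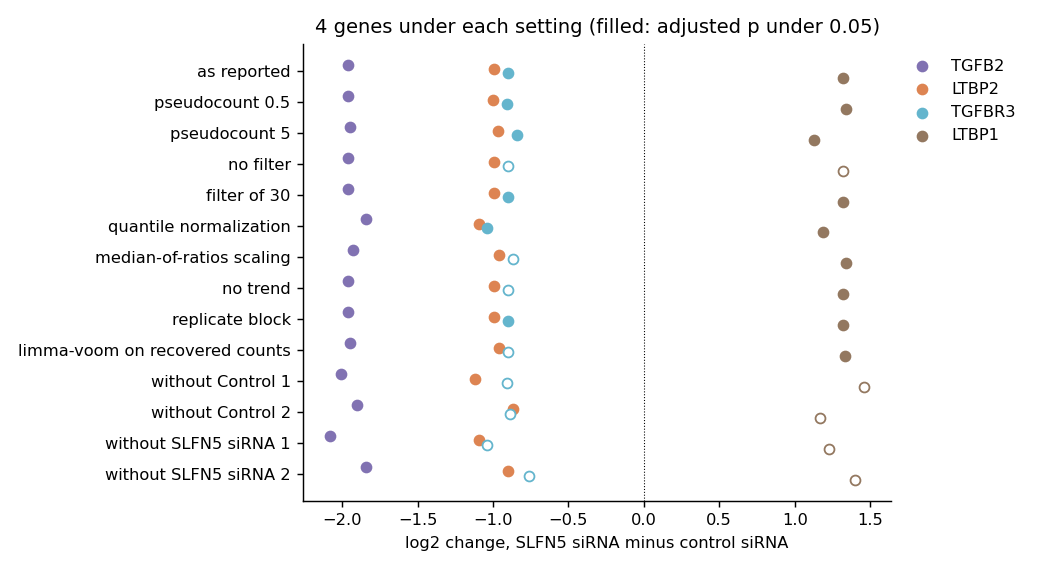
Points are the log2 changes of the 4 called genes as reported and under each of 13 other settings, filled where the adjusted p is under 0.05. The LTBP2 point with no trend is barely under that threshold (limma adjusted p = 0.0499). TGFB2 and LTBP2 are filled throughout, whereas TGFBR3 and LTBP1 are open in all 4 fits that leave out a library.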

How the data were processed

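RNA was measured in 4 libraries, 2 per group. Libraries were TruSeq v2 from poly(A) RNA, read as single ends, per the labels. The submitters' processing notes name hg19 and edgeR, but no aligner, counter or annotation is named in what was used here. Triplicates are mentioned in the series' design, whereas 4 libraries were analysed.

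The authors deposited a normalized signal, here called equalised counts, in which the counts of each library are adjusted to a common library size. Reversing that adjustment (common dispersion 0.0162) gave whole counts for 99.9987% of 230636 values, at a relative tolerance of 1e-05. These counts gave the depth and served for limma-voom. Libraries of a group differed by more than counting noise (chi-square over its degrees of freedom, 18.0 and 17.8).

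Values were transformed as log2(value + 1), which understates changes of low genes. The 15640 genes that reached 10 in 2 or more libraries were fitted with limma 3.58.1 in R 4.3.3, on the group alone, two-sided, with an intensity trend, and p-values were adjusted over those genes by Benjamini-Hochberg (threshold 0.05). The variance of each gene drew more on the trend over all genes (prior degrees of freedom 9.60) than on its own libraries (residual degrees of freedom 2). An adjusted p quoted for another setting or without a library comes from limma on that setting. The procedure was also run on simulated data, with an outcome that is not reported here. The 10 genes and the lists were chosen with earlier results of these data known. From each list the text names up to 4 genes that passed, with the largest absolute log2 change, and all 10 genes whatever their values. Some items that the rules would name are not reported here. The alternatives were other pseudocounts, filters and scalings, no trend, a replicate block, limma-voom and leaving out each library.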

Additional observations from a re-analysis of the deposited data

How the results depend on the processing

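The 10 genes and 21 list genes were refitted under 13 alternatives, 403 values in all: 360 kept their direction and their side of the threshold, 35 lost a call, 3 gained one and 5 changed sign. TGFB2 kept its call in all 13, with log2 changes of -2.08 to -1.84, and LTBP2 likewise with -1.12 to -0.87. Both were near the threshold with no trend, at limma adjusted p = 0.0420 for TGFB2 and 0.0499 for LTBP2. The sign changes all belonged to uncalled genes: TGFB1 had 0.11 without Control 1 and 0.12 without SLFN5 siRNA 2 (range over the libraries left out -0.25 to 0.12), TGFB3 had -0.13 and -0.20 in the same fits (range -0.20 to 0.53), and LTBP3 had -0.22 without Control 2 (range -0.22 to 0.82). The cause was not tested.

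The count of the 10 genes called higher was 0 with no filter and 2 with quantile normalization. In the fits leaving out a library, LTBP1 and TGFBR3 lost their calls each time. LTBP3 gained a call without Control 1, at a log2 change of 0.82. With no trend, 510 of all genes were lower and 672 higher, and the lists of SMAD transducers, feedback inhibitors, latency genes, superfamily ligands and targets had 0, 3, 1, 2 and 5 calls. Quantile normalization gave 11 latency genes and 1 superfamily receptor. Leaving out a library gave 1588 to 2341 lower and 1346 to 1767 higher genes (fewest without Control 2), 1 to 3 SMAD transducers, 3 to 4 superfamily ligands and 0 to 1 superfamily receptors. The TGFB2 to TGFB1 log2 ratio difference ranged from -2.13 to -1.65.

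Titles pair one library of each group by a number that no label explains. Deviations of same-numbered libraries correlated at 0.19 across genes. With that number as a replicate block, 3695 genes were lower and 3008 higher, 2 of the 10 genes were higher (TGFBR2 with limma adjusted p = 0.0328), and 5 SMAD transducers, 11 latency genes and 3 superfamily receptors passed.

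Depth limits LTBP1, TGFB3 and TGFBR3 most. Where a fit left 1 library in a group, that library was assumed to vary like the others.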
